A study of Arabidopsis thaliana with 22 samples.

Results

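Dehydrins are hydrophilic proteins that accumulate when plant cells lose water, and 4 of their genes were followed here through every genotype and treatment of the study: LTI30 (locus AT3G50970, also called XERO2), COR47 (AT1G20440, also called RD17), RAB18 (AT5G66400) and ERD10 (AT1G20450). They were chosen by locus and make up 4 of the 38408 probe sets on the array, a probe set being the group of probes that reports a transcript. The array annotation names LTI30 and COR47. RAB18 and ERD10 are named only by the study's table of transcripts responding to ABA in wild type. Their rise in wild type, and any comparison that uses the same wild type arrays, is therefore not independent evidence for these 2 genes. RAB18 was matched by locus because the symbol is also used for a GTPase.

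Dehydrins are largely disordered in solution and share lysine-rich K segments that can fold on contact with membranes. They protect membranes and enzymes during drying and freezing, and many are switched on by the hormone abscisic acid (ABA), by cold or by both, through ABRE and DRE elements in their promoters. LTI30 is built of K segments and binds membranes. COR47 and ERD10 are acidic dehydrins with a stretch of serines, and purified ERD10 keeps other proteins from aggregating. RAB18 carries Y segments as well and is widely used as a marker of ABA signalling. COR47 and ERD10 lie next to each other on chromosome 1 in the TAIR10.1 annotation, and LTI30 on chromosome 3 lies next to XERO1, another dehydrin gene.

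Whole leaves of 4 genotypes were sprayed with 20 µM ABA or with the ethanol control solution (mock), and their RNA was hybridised to 22 Affymetrix Gene ST arrays, which fall into 8 groups. The wild type plants are F1 hybrids from crossing Col-0 with Ler. The mutant sal1-8, labelled alx8, is in Col-0 and lacks the phosphatase that breaks down the chloroplast signal PAP. The mutant ost1-2 is in Ler and affects the protein kinase OST1 of ABA signalling, and ost1-2 sal1-8 descends from a cross of both. Wild type, sal1-8 and ost1-2 sal1-8 had 3 arrays for each treatment and ost1-2 had 2. The treatment lasted 45 min by the labels of the ABA samples but 2 h by their protocol, and plants were 30 days old. A difference between genotypes also holds differences between ecotypes, and the 2 cannot be told apart. In whole leaves, fewer cells of a type and less RNA per cell cannot be told apart either.

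Arrays are named here by the number in their label. In the order of these numbers the arrays were divided into 7 stretches of a single treatment. Of these, 105 to 108, 114 to 117 and 130 to 133 are mock, and 110 and 113, 118 to 121, 126 to 129 and 134 to 136 are ABA. The stretches were divided where the treatment changes, also where the numbers go on without a gap. The ABA stretches 118 to 121 and 126 to 129 follow each other and were kept apart at the gap in their numbers. Arrays 110 and 113 were kept together across a gap. Some numbers within the stretches are not among the 22 arrays. What a stretch stands for is not given in the sources used here. A genotype difference can be taken within a stretch, while a response to ABA cannot, by the way they were divided. Array medians ran from 4.60 to 5.0 on the log2 scale, and array 130 (wild type mock) stood apart from the other wild type mock arrays and had the lowest weight when arrays were weighted by their residuals (0.26). Tests were made with limma over the 14000 brightest probe sets, and a call needs a change of more than 1.5-fold with p under 0.05 after Benjamini-Hochberg adjustment. SE stands for the standard error of the fit. Statements on the overlap of arrays and on the direction of differences within stretches are descriptions, since their share over all probe sets was not counted. The dimmest probe set tested reached a group mean of 6.46. COR47 and ERD10 exceeded this in all 8 groups and RAB18 in 5. LTI30 did so in 1 group, wild type after ABA, with 7.06, so that it entered the tests through the group in which it is highest. Tested among all 38408 probe sets, the rise of LTI30 in wild type had an adjusted p of 4.6e-07, within a range of 7.6e-08 to 8.0e-04 over the alternatives run. Its level lay under the array median in 5 groups, and whether those levels were above background was not tested.

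ABA raised all 4 dehydrins in wild type leaves, in sal1-8 leaves and in leaves of ost1-2 sal1-8, and none of them passed in ost1-2. In wild type this is no independent evidence for RAB18 and ERD10, which were named through their response there. LTI30 entered the tests through its level in wild type after ABA. The share of all probe sets called as rising was 8.96% in wild type, 2.19% in sal1-8, 2.09% in ost1-2 sal1-8 and 0.0429% in ost1-2. In ost1-2 the count by limma was 0, also at an unadjusted p under 0.05, at which 743 of the 14000 probe sets rose. As a description, the median log2 response of the 4 genes was 2.86 in wild type, 1.86 in sal1-8, 1.77 in ost1-2 sal1-8 and 0.24 in ost1-2, beside medians over all 14000 probe sets of -0.10, -0.06, -0.02 and 0.02.

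**Figure D1:**
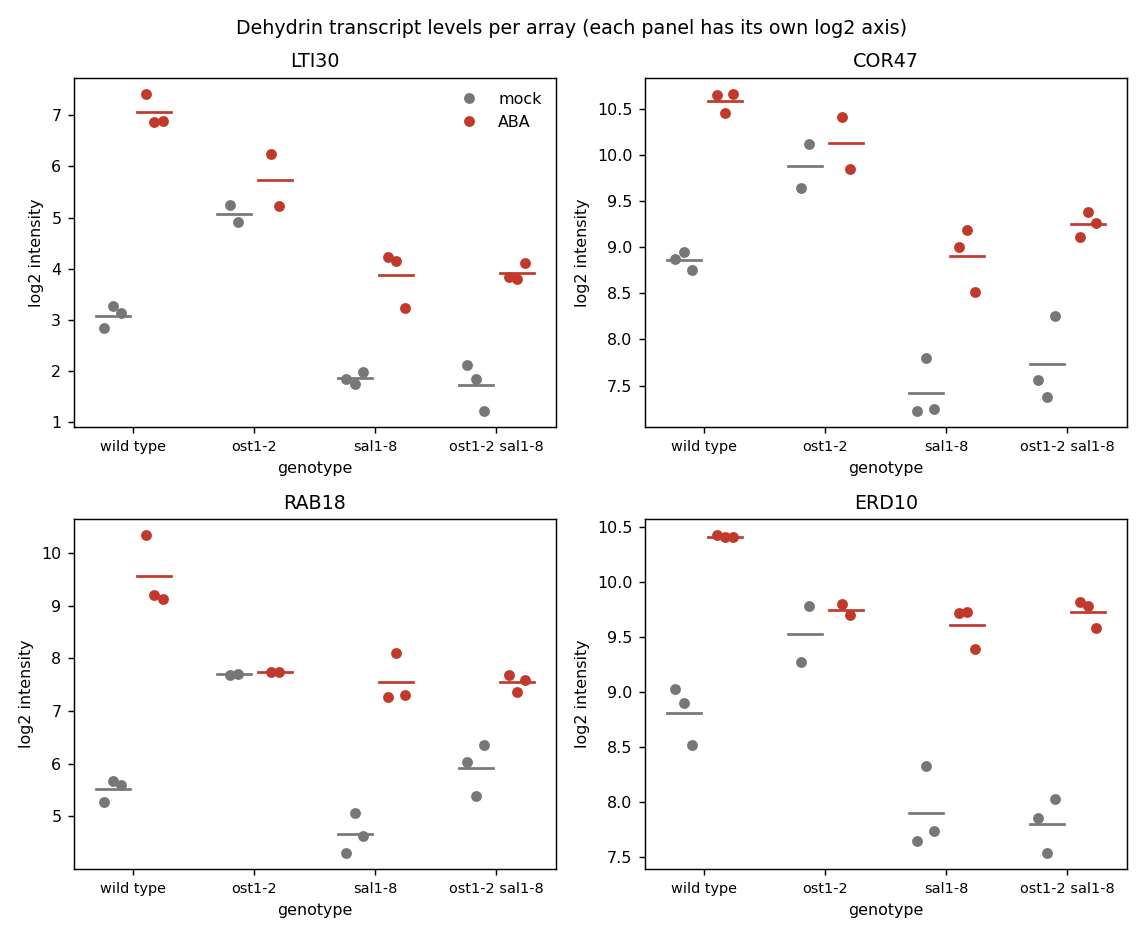
Log2 intensity (vertical axis) of each dehydrin on each of the 22 arrays, by genotype (horizontal axis), with mock in grey and ABA in red. Points are arrays and short lines are group means, and the ABA points lie above the mock points in wild type, sal1-8 and ost1-2 sal1-8 in all panels, while the ost1-2 mock points start high.

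LTI30 was dim in mock-treated wild type leaves, with log2 intensities of 2.84, 3.27 and 3.13 on arrays 130, 114 and 105. After ABA it read 7.43, 6.87 and 6.89 on arrays 134, 126 and 118. Every ABA array thus lay above every mock array, by at least 3.60. The rise was 3.98 on the log2 scale (standard error 0.29, 95% confidence interval 3.37 to 4.59, adjusted p = 1.6e-07, limma, n = 3 and 3), or 15.8-fold over a mock level that was not tested against background. It ranked 34 among the responses of the 14000 probe sets.

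In sal1-8, LTI30 read 1.84, 1.75 and 1.98 in mock (131, 115 and 106) and 4.22, 4.15 and 3.24 after ABA (135, 127 and 110). Array 110 was the lowest of the ABA arrays but still lay above all mock arrays of its genotype. The rise was 2.01 (SE 0.29, adjusted p = 5.5e-04, limma, n = 3 and 3). In ost1-2 sal1-8, LTI30 read 2.11, 1.85 and 1.21 in mock (133, 117 and 108) and 3.83, 3.79 and 4.11 after ABA (129, 121 and 113). The groups did not overlap, and the rise was 2.19 (SE 0.29, adjusted p = 2.2e-04, limma, n = 3 and 3). In both genotypes the mean level of LTI30 lay under the array median in mock and after ABA, and was not tested against background.

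The ost1-2 leaves differed from the others already before ABA. LTI30 read 5.24 and 4.91 in their mock arrays (116 and 107) and 6.25 and 5.23 after ABA (136 and 120). The higher mock array and the lower ABA array overlapped. The log2 response was 0.66 (SE 0.36, 95% confidence interval -0.09 to 1.41, adjusted p = 0.56, limma, n = 2 and 2).

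COR47 was bright in all groups. In wild type it read 8.87, 8.95 and 8.75 in mock (130, 114 and 105) and 10.65, 10.45 and 10.66 after ABA (134, 126 and 118). Both sets of 3 were tight, with standard deviations of 0.10 and 0.12, and they did not overlap. The rise was 1.73 on the log2 scale (standard error 0.23, 95% confidence interval 1.24 to 2.23, adjusted p = 7.8e-05, limma), or 3.32-fold.

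COR47 rose with ABA in both genotypes that carry sal1-8. In sal1-8 it read 7.22, 7.80 and 7.24 in mock (131, 115 and 106) and 9.00, 9.19 and 8.51 after ABA (135, 127 and 110). In ost1-2 sal1-8 it read 7.56, 7.37 and 8.25 in mock (133, 117 and 108) and 9.11, 9.38 and 9.26 after ABA (129, 121 and 113). All ABA arrays exceeded all mock arrays in both genotypes, although array 115 and array 108 stood above the other mock arrays of their groups. COR47 rose by 1.48 in sal1-8 (SE 0.23, adjusted p = 0.0015, limma) and by 1.52 in ost1-2 sal1-8 (SE 0.23, adjusted p = 9.6e-04, limma).

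In ost1-2, COR47 read 9.64 and 10.11 in mock (116 and 107) and 10.41 and 9.85 after ABA (136 and 120). The pairs overlapped, and all 4 arrays lay above the wild type mock arrays. The log2 response was 0.25 (SE 0.29, 95% confidence interval -0.35 to 0.86, adjusted p = 0.80, limma).

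RAB18 had the widest change of the 4 in wild type together with LTI30. It read 5.28, 5.67 and 5.60 in wild type mock (130, 114 and 105) and 10.33, 9.20 and 9.13 after ABA (134, 126 and 118). Array 134 stood 1.13 above the next ABA array, and all ABA arrays lay at least 3.46 above the mock arrays. The rise was 4.04 on the log2 scale (standard error 0.31, 95% confidence interval 3.39 to 4.69, adjusted p = 2.7e-07, limma), or 16.4-fold. It was 3.65 without array 134.

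In sal1-8, RAB18 read 4.30, 5.07 and 4.64 in mock (131, 115 and 106) and 7.26, 8.10 and 7.30 after ABA (135, 127 and 110). In ost1-2 sal1-8 it read 6.04, 5.38 and 6.36 in mock (133, 117 and 108) and 7.68, 7.36 and 7.58 after ABA (129, 121 and 113). The treatments did not overlap in either genotype, and the 2 genotypes overlapped after ABA but not in mock. RAB18 rose by 2.89 in sal1-8 (SE 0.31, adjusted p = 3.7e-05, limma) and by 1.62 in ost1-2 sal1-8 (SE 0.31, adjusted p = 0.0057, limma). Without array 117 the rise in ost1-2 sal1-8 was 1.34 with an adjusted p of 0.051, the highest of the alternatives (from 9.2e-04).

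The 4 ost1-2 arrays of RAB18 were nearly the same, with 7.68 and 7.71 in mock (116 and 107) and 7.74 and 7.73 after ABA (136 and 120). They lay above wild type mock and below wild type after ABA, within the range of sal1-8 after ABA. The log2 response was 0.04 (SE 0.38, 95% confidence interval -0.76 to 0.84, adjusted p = 0.98, limma).

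ERD10 read 9.03, 8.90 and 8.51 in wild type mock (130, 114 and 105) and 10.43, 10.41 and 10.41 after ABA (134, 126 and 118). The ABA arrays spanned 0.02 and lay at least 1.38 above the mock arrays. The rise was 1.60 on the log2 scale (standard error 0.19, 95% confidence interval 1.19 to 2.01, adjusted p = 2.8e-05, limma), or 3.03-fold.

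ERD10 rose in sal1-8 and in ost1-2 sal1-8 from lower mock levels. It read 7.64, 8.33 and 7.73 in sal1-8 mock (131, 115 and 106) and 9.71, 9.73 and 9.39 after ABA (135, 127 and 110). It read 7.85, 7.53 and 8.02 in ost1-2 sal1-8 mock (133, 117 and 108) and 9.82, 9.79 and 9.58 after ABA (129, 121 and 113). No mock array reached an ABA array in either genotype. The rise was 1.71 in sal1-8 (SE 0.19, adjusted p = 7.0e-05, limma) and 1.93 in ost1-2 sal1-8 (SE 0.19, adjusted p = 1.6e-05, limma).

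In ost1-2, ERD10 read 9.27 and 9.78 in mock (116 and 107) and 9.80 and 9.70 after ABA (136 and 120). Mock array 107 lay between the ABA arrays. The log2 response was 0.22 (SE 0.24, 95% confidence interval -0.28 to 0.72, adjusted p = 0.79, limma).

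**Figure D2:**
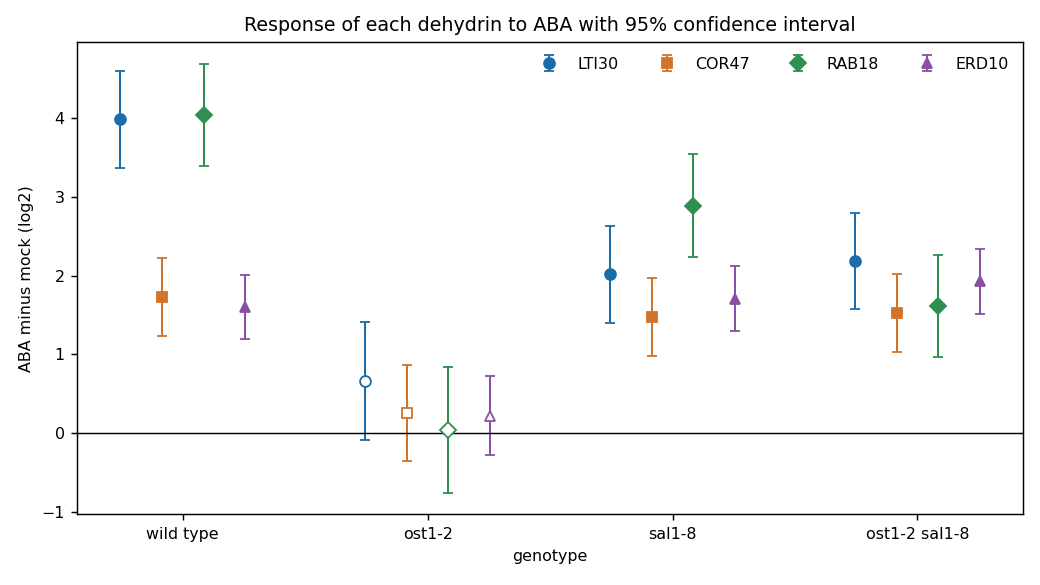
Log2 difference between ABA and mock (vertical axis) for each dehydrin and genotype (horizontal axis), with 95% confidence intervals from the limma fit. Filled symbols passed the test and open symbols did not, and only the 4 symbols of ost1-2 are open, with estimates from 0.04 to 0.66.

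As a share of the log2 response of wild type, the response of RAB18 was 71.5% in sal1-8 and 40.0% in ost1-2 sal1-8. COR47 and ERD10 had shares of 85.4% to 120% in these genotypes, and the shares of the 3 genes in ost1-2 ran from 1.06% to 14.7%. These shares have no test of their own, and the differences between responses are tested further on. No share is given for LTI30, whose mock levels lay under the array median in wild type and in both genotypes that carry sal1-8.

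**Figure D3:**
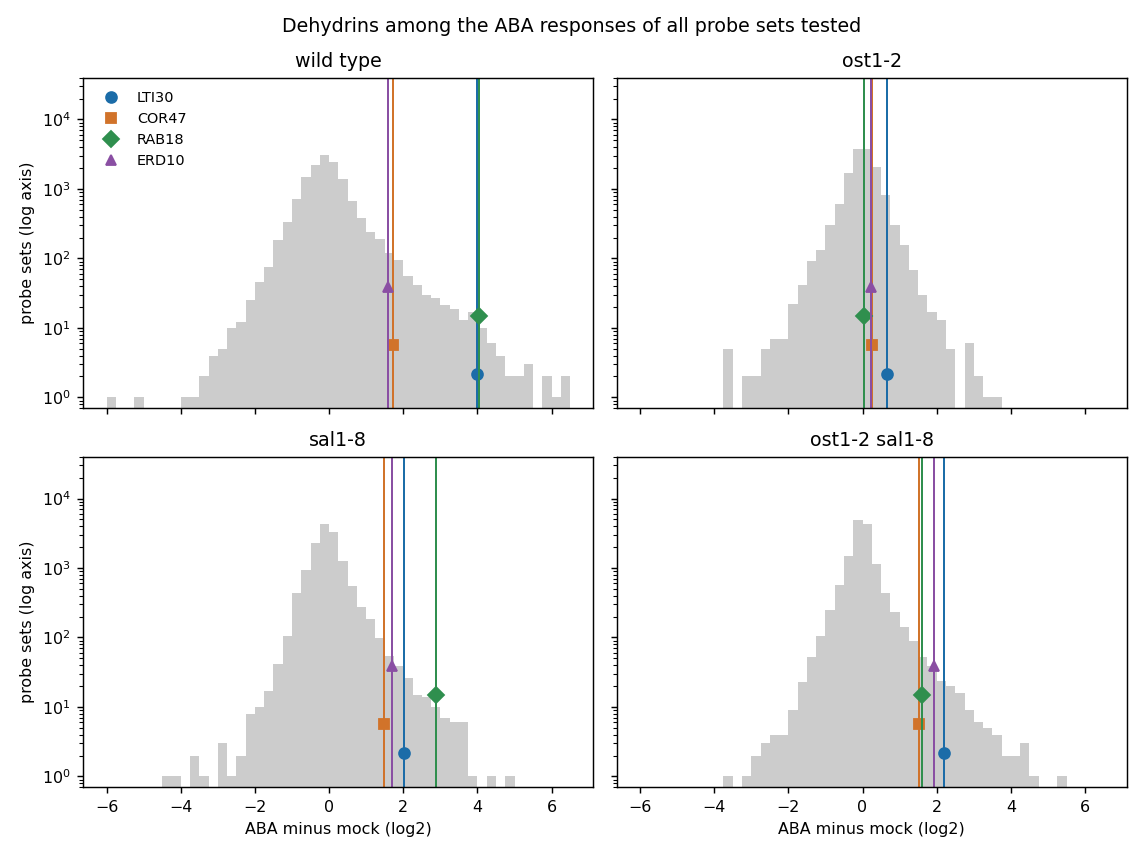
Number of probe sets (vertical log axis) by log2 response to ABA (horizontal axis) for the 14000 probe sets tested in each genotype, as grey bars of 0.25. Coloured lines mark the dehydrins (the height of a symbol has no meaning), which lie in the right tail in wild type, sal1-8 and ost1-2 sal1-8. In ost1-2 they lie from 0.04 for RAB18 (rank 6507 of 14000) to 0.66 for LTI30 (rank 813).

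Leaves of ost1-2 under mock had more LTI30, COR47 and RAB18 transcript than mock-treated wild type leaves. The mean levels, on the log2 scale, differed by 2.00 for LTI30 (SE 0.32, adjusted p = 0.0021, limma, n = 2 and 3), by 1.02 for COR47 (SE 0.26, adjusted p = 0.044) and by 2.18 for RAB18 (SE 0.35, adjusted p = 0.0017). Thus 3 of the 4 dehydrins were called higher, against 1.43% of all probe sets. RAB18 was named through its response on the same wild type arrays. The wild type mean of LTI30, 3.08, lay under the array median and was not tested against background. ERD10 differed by 0.71 and did not pass (SE 0.22, adjusted p = 0.091), although its arrays did not overlap. All 8 differences taken within the 2 stretches of sample numbers that hold both genotypes (105 to 108 and 114 to 117) ran upwards, from 0.38 to 2.11. The call of COR47 ended in 17 of 33 alternatives, 12 of them left-out arrays (105, 106, 107, 113, 114, 116, 121, 126, 129, 130, 131 and 135), with 0.78 and an adjusted p of 0.46 without array 107 as the widest shift (range 0.028 to 0.46).

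The opposite held without ABA in sal1-8, where all 4 dehydrins were lower than in wild type, against 9.76% of all probe sets. COR47 was lower by a log2 difference of -1.44 (SE 0.23, adjusted p = 2.4e-04, limma, n = 3 and 3) and LTI30 by -1.22 (SE 0.29, adjusted p = 0.0047). The mock means of LTI30, 1.86 in sal1-8 and 3.08 in wild type, lay under the array median and were not tested against background. ERD10 differed by -0.91 (SE 0.19, adjusted p = 0.0022). RAB18 differed by -0.85 (SE 0.31, adjusted p = 0.047). None of the 4 genes had overlapping arrays, as a description, since the share of all probe sets without overlap was not counted. Within the 3 stretches that hold both genotypes, all 12 differences ran downwards, from -0.57 to -1.65. The call of RAB18 ended in 18 of 33 alternatives, 14 of them left-out arrays (105, 106, 107, 110, 113, 114, 116, 120, 121, 129, 131, 133, 135 and 136), with -0.67 and an adjusted p of 0.17 without array 131 (range 0.011 to 0.17).

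In ost1-2 sal1-8 without ABA, 3 of the 4 dehydrins were lower than in wild type, against 6.75% of all probe sets. The log2 differences were -1.36 for LTI30 (SE 0.29, adjusted p = 0.0027, limma, n = 3 and 3), -1.13 for COR47 (SE 0.23, adjusted p = 0.0022) and -1.01 for ERD10 (SE 0.19, adjusted p = 0.0011). The mock means of LTI30, 1.72 in ost1-2 sal1-8 and 3.08 in wild type, lay under the array median and were not tested against background. RAB18 had a difference of 0.41 that did not pass (SE 0.31, 95% confidence interval -0.24 to 1.06, adjusted p = 0.37), and its arrays overlapped with those of wild type. Within stretches, LTI30, COR47 and ERD10 were lower in all 3, from -0.49 to -1.92, and RAB18 was higher in 2 and lower in 1.

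Set against its ost1-2 parent, mock-treated ost1-2 sal1-8 had less of all 4 dehydrins, against 9.54% of all probe sets called lower. LTI30 differed by -3.36 on the log2 scale (standard error 0.32, adjusted p = 9.3e-07, limma, n = 3 and 2). Its mean in ost1-2 sal1-8, 1.72, lay under the array median and was not tested against background. COR47 differed by -2.15 (SE 0.26, adjusted p = 1.6e-05), RAB18 by -1.77 (SE 0.35, adjusted p = 0.0013) and ERD10 by -1.72 (SE 0.22, adjusted p = 2.1e-05). In all 4 genes every ost1-2 mock array lay at least 1.25 above every ost1-2 sal1-8 mock array.

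Set against its sal1-8 parent, mock-treated ost1-2 sal1-8 differed in RAB18, which was higher by 1.26 on the log2 scale (standard error 0.31, adjusted p = 0.025, limma, n = 3 and 3). This was 1 of 4 dehydrins, against 1.34% of all probe sets called higher. RAB18 was higher in each of the 3 stretches, by 0.32, 1.72 and 1.74. Its call ended without array 106, 108, 131 or 133 (adjusted p up to 0.15, with 1.04 without array 108), with only the groups compared and with the stretch as a fixed block. COR47 differed by 0.31 (95% confidence interval -0.19 to 0.80), LTI30 by -0.14 (-0.75 to 0.48) and ERD10 by -0.10 (-0.51 to 0.31), none of which passed, and their arrays overlapped.

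**Figure D4:**
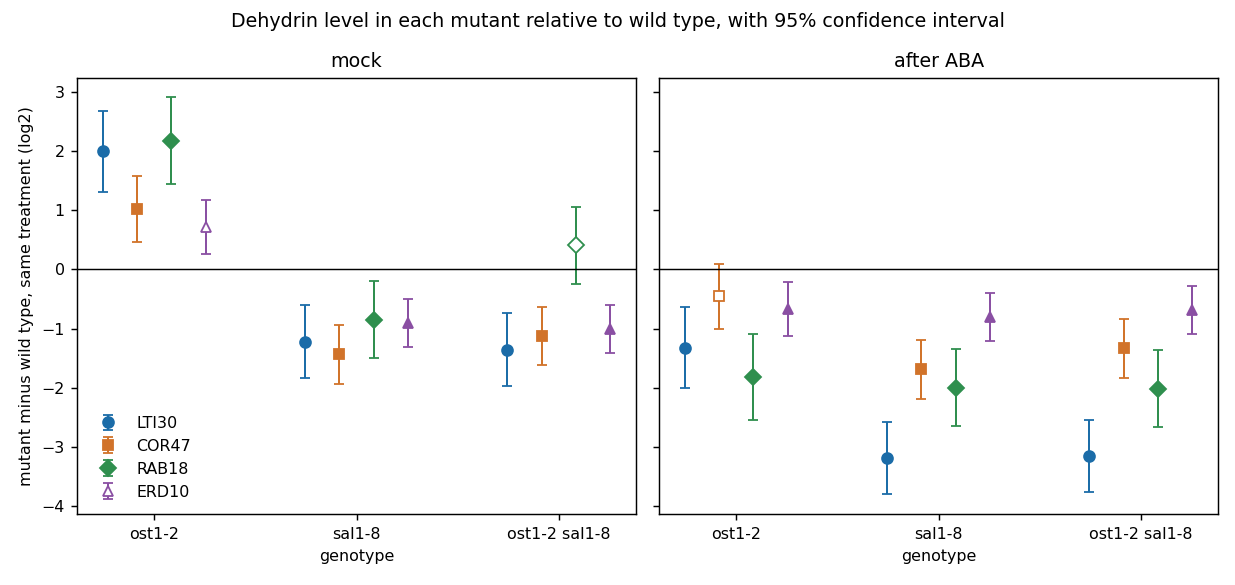
Log2 difference between each mutant and wild type under the same treatment (vertical axis), with 95% confidence intervals from the limma fit, in mock (left) and after ABA (right), by genotype (horizontal axis). Filled symbols passed the test. In mock, ost1-2 lies above 0 and sal1-8 below, and after ABA all 12 estimates lie below 0.

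After ABA, wild type had the highest mean level of each dehydrin. LTI30 entered the tests through this group, and RAB18 and ERD10 were named through their rise on its arrays. For these genes neither this order nor the counts against wild type are independent evidence. In sal1-8 all 4 were lower than in wild type, against 11.0% of all probe sets, with log2 differences of -3.19 for LTI30 (SE 0.29, adjusted p = 3.7e-07, limma, n = 3 and 3), -2.0 for RAB18 (SE 0.31, adjusted p = 1.3e-04), -1.69 for COR47 (SE 0.23, adjusted p = 4.6e-05) and -0.80 for ERD10 (SE 0.19, adjusted p = 0.0045). In ost1-2 sal1-8 all 4 were lower too, against 11.1% of all probe sets. There LTI30 differed by -3.15 (SE 0.29, adjusted p = 3.4e-07), RAB18 by -2.01 (SE 0.31, adjusted p = 9.6e-05), COR47 by -1.34 (SE 0.23, adjusted p = 3.4e-04) and ERD10 by -0.69 (SE 0.19, adjusted p = 0.010). The arrays did not overlap in any of these 8 cases, and all 16 differences within stretches ran downwards. The mean level of LTI30 lay under the array median in both mutants and was not tested against background. Both genotypes were set against the same wild type ABA arrays, so these counts are not independent of each other. The call of ERD10 in ost1-2 sal1-8 ended with the stretch as a fixed block (-0.58, adjusted p = 0.074, range over the alternatives 0.0017 to 0.074).

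After ABA, ost1-2 was lower than wild type in 3 of 4 dehydrins, against 6.31% of all probe sets. All 3 entered the tests or were named through the same wild type arrays, so the count is not independent evidence. LTI30 differed by -1.32 (SE 0.32, adjusted p = 0.012, limma, n = 2 and 3), RAB18 by -1.82 (SE 0.35, adjusted p = 0.0030) and ERD10 by -0.66 (SE 0.22, adjusted p = 0.043). COR47 differed by -0.46 and did not pass (SE 0.26, adjusted p = 0.24). With only these 2 groups fitted, 0 dehydrins passed, with adjusted p from 0.054 to 0.084 for the 3 genes. The call of LTI30 ended without array 120 (-0.81, adjusted p = 0.19, range 0.0050 to 0.19). The call of ERD10 ended in 11 of 33 alternatives, 8 of them left-out arrays (118, 120, 121, 126, 133, 134, 135 and 136), with adjusted p over all alternatives from 0.0068 to 0.20.

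After ABA, LTI30 and COR47 were still lower in ost1-2 sal1-8 than in ost1-2, 2 of 4 dehydrins, against 5.33% of all probe sets. The log2 differences were -1.83 for LTI30 (SE 0.32, adjusted p = 7.7e-04, limma, n = 3 and 2) and -0.88 for COR47 (SE 0.26, adjusted p = 0.030). The mean level of LTI30 lay under the array median in ost1-2 sal1-8 and was not tested against background. RAB18 differed by -0.19 (95% confidence interval -0.92 to 0.53) and ERD10 by -0.02 (-0.48 to 0.44), and neither passed. The call of COR47 ended without array 113, 129 or 136 (-0.89, -0.81 and -0.60, adjusted p up to 0.31), over all probe sets and with the stretch as a fixed block. The 2 genotypes that carry sal1-8 overlapped after ABA in each of the 4 dehydrins, with group means of 3.87 and 3.91 for LTI30, 8.90 and 9.25 for COR47, 7.55 and 7.54 for RAB18, and 9.61 and 9.73 for ERD10, a pair that was not tested.

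The order of the 8 group means began with wild type after ABA and ost1-2 after ABA in all 4 genes and ended with the mock groups of sal1-8 and ost1-2 sal1-8 in 3 of them. For LTI30 and COR47 it then ran from ost1-2 mock over ost1-2 sal1-8 after ABA and sal1-8 after ABA to wild type mock. Neighbours in this order whose arrays overlapped were the ost1-2 groups, the ABA groups of ost1-2 sal1-8 and sal1-8, sal1-8 after ABA and wild type mock, and the last pair. For RAB18 the last group was sal1-8 mock, and ost1-2 sal1-8 mock overlapped with wild type mock. For ERD10 the 3 mutants after ABA and ost1-2 mock followed wild type after ABA, each overlapping with the next.

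The response to ABA was larger in wild type than in ost1-2 for all 4 dehydrins, against 6.29% of all probe sets. RAB18 and ERD10 were named through their response in wild type, and LTI30 entered the tests through wild type after ABA. For these genes the count is therefore not independent evidence. The difference of the log2 responses was 3.99 for RAB18 (limma, n = 3 and 3 against 2 and 2, SE 0.49, adjusted p = 4.2e-04), 3.32 for LTI30 (SE 0.46, adjusted p = 8.7e-04), 1.48 for COR47 (SE 0.37, adjusted p = 0.019) and 1.38 for ERD10 (SE 0.31, adjusted p = 0.012). Without mock array 107 the calls of COR47 (1.24, adjusted p = 0.10) and ERD10 (1.13, adjusted p = 0.078) ended, and without array 120 that of COR47 did (1.20, adjusted p = 0.086). Over the alternatives the adjusted p ran from 0.013 to 0.10 for COR47 and from 0.0034 to 0.078 for ERD10. The higher ost1-2 mock levels given above enter this difference directly. For RAB18, ost1-2 mock lay 2.18 above wild type mock and the difference between ost1-2 and wild type after ABA was -1.82.

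Between wild type and sal1-8 the response of LTI30 differed by 1.97 (SE 0.41, adjusted p = 0.049, limma, n = 3 and 3 for each), 1 of 4 dehydrins against 0.264% of all probe sets called higher. This call ended in 24 of 32 alternatives (adjusted p from 0.053 to 0.17), among them the leaving out of any 1 array except 108, 120, 127, 133 or 136. RAB18 had a difference of 1.15 that did not pass (95% confidence interval 0.23 to 2.07, adjusted p = 0.35). COR47 differed by 0.25 (-0.45 to 0.95) and ERD10 by -0.11 (-0.69 to 0.47). LTI30 entered the tests through its level in wild type after ABA, so its difference is not independent evidence.

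Between wild type and ost1-2 sal1-8 the response of RAB18 differed by 2.42 (SE 0.44, adjusted p = 0.028, limma, n = 3 and 3 for each), 1 of 4 dehydrins against 0.221% of all probe sets called higher. The call ended in 8 of 33 alternatives, 5 of them arrays left out (108, 121, 129, 130 and 133), with adjusted p up to 0.11 and values of 2.21 to 2.49. LTI30 differed by 1.79 (SE 0.41, adjusted p = 0.077), and without array 110 by the same amount with an adjusted p of 0.045, the lowest of the alternatives (up to 0.19). COR47 differed by 0.21 (95% confidence interval -0.49 to 0.91) and ERD10 by -0.33 (-0.90 to 0.25). RAB18 was named through its response on the same wild type arrays, so its difference is not independent evidence.

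ERD10 responded more strongly in ost1-2 sal1-8 than in the ost1-2 single mutant, with a difference of 1.70 on the log2 scale (standard error 0.31, adjusted p = 0.016, limma, n = 3 and 3 against 2 and 2). This was 1 of 4 dehydrins, against 0.379% of all probe sets called higher. Its call ended without array 107, 120 or 136 (1.45, 1.65 and 1.75, adjusted p up to 0.13) and with the stretch as a fixed block. LTI30 (1.52, adjusted p = 0.20), COR47 (1.27, adjusted p = 0.18) and RAB18 (1.57, adjusted p = 0.21) did not pass. All 4 were higher at an unadjusted p under 0.05, as were 850 of the 14000 probe sets. In this comparison ost1-2 sal1-8 starts from a lower mock level than ost1-2 in each of the 4 genes.

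The labelled tissue was leaf, and RCA, the Rubisco activase of photosynthetic cells, read 11.5 to 12.1 on all arrays. Of 10 leaf mesophyll markers 3 are named, of 7 guard cell markers 2, and of the seed and flower markers none. RBCS1B and RBCS2B, small subunits of Rubisco, are named only by the study's table of transcripts responding to ABA in wild type, so their response there is a description and no independent evidence. With ABA in wild type 3 of the 5 markers were called lower, against 10.5% of all probe sets. RBCS1B differed by -2.43 on the log2 scale (adjusted p = 2.8e-04, limma), RBCS2B by -1.31 (adjusted p = 0.040, with overlapping arrays) and the guard cell factor FAMA by -1.19 (adjusted p = 6.5e-04). RCA (-0.31) and the guard cell gene GC1 (-0.46) did not pass, and none of the 5 passed for a response to ABA in another genotype.

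After ABA some markers of both cell types were called higher in the mutants than in wild type, and others were not. RCA was called in no mutant (0.29 in ost1-2, -0.11 in sal1-8 and 0.17 in ost1-2 sal1-8). GC1 differed by -0.40 in sal1-8 and did not pass. RBCS1B and RBCS2B were named through their response on the same wild type arrays, so these differences are no independent evidence for them. In ost1-2, 3 of the 5 were called higher, against 10.1% of all probe sets, with log2 differences of 2.19 for RBCS1B, 1.55 for FAMA and 1.45 for GC1. In sal1-8, 2 of the 5 were called higher, against 15.9% of all probe sets, with 1.53 for RBCS2B and 0.78 for FAMA. In ost1-2 sal1-8, 4 of the 5 were called higher, against 21.3% of all probe sets, with 1.54 for RBCS1B, 1.85 for RBCS2B, 1.01 for FAMA and 0.87 for GC1. In mock no marker was called in a mutant against wild type, and RBCS2B was higher in ost1-2 sal1-8 than in ost1-2 (1.78, adjusted p = 0.013, limma). The difference of the responses of wild type and ost1-2 was called lower for RBCS1B (-2.64) and FAMA (-1.35), against 7.66% of all probe sets, and no marker was called for the other 3 differences of responses. The part of these markers in the dehydrin results was not tested.

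Of the 6 other dehydrin genes listed, 4 are named on the array and 1, HIRD11, a small dehydrin that binds metal ions, was bright enough to be tested. HIRD11 did not pass for a response to ABA in any genotype. Its log2 response in wild type was 0.48 (SE 0.18, adjusted p = 0.071, limma), from 8.27 to 8.70 in mock to 8.85 to 9.07 after ABA, and it was 0.03 in sal1-8, 0.27 in ost1-2 sal1-8 and -0.04 in ost1-2. The level of HIRD11 was lower than in wild type in sal1-8 (-0.96, SE 0.18, adjusted p = 0.0010) and in ost1-2 sal1-8 (-0.96, SE 0.18, adjusted p = 0.0011) without ABA. After ABA it was lower too, by -1.41 and -1.17 (adjusted p = 2.5e-05 and 1.2e-04). The dim genes AT2G21490, AT4G38410 and AT4G39130 had group means of 2.35 to 4.52 in all groups and were not tested.

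Of 12 listed transcription factors that bind ABRE or DRE elements, 2 are named, both only by the study's table, and ABF2, which binds ABRE elements, was tested. That table lists transcripts responding to ABA in wild type, so the response of these 2 genes there is a description and no independent evidence. In wild type ABF2 rose by 1.87 (SE 0.22, adjusted p = 2.4e-05, limma), by 1.39 in sal1-8 (adjusted p = 0.0016) and by 1.33 in ost1-2 sal1-8 (adjusted p = 0.0021), and its log2 response in ost1-2 was 0.21 (adjusted p = 0.83). Its mock level did not pass as different from wild type in any mutant. DREB2A, which binds DRE elements, was not bright enough to be tested. It read 4.98 to 5.45 in wild type mock and 6.17 to 6.48 after ABA, and in ost1-2 5.77 to 5.78 in mock and 4.91 to 5.19 after ABA.

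Over the 8 group means the 4 dehydrins ran closely together, as a description, with Pearson correlations from 0.89 (COR47 and RAB18) to 0.98 (LTI30 and COR47). Over the deviations of the 22 arrays from their group means the correlation was 0.77 for the neighbours COR47 and ERD10, 0.53 for COR47 and RAB18, and -0.08 to 0.42 for the other 4 pairs. The points share arrays. Whether probes of COR47 also bind ERD10 transcript, or the reverse, was not tested.

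Among 6261 other tested probe sets of a single gene, the 5 most like LTI30 over the 8 group means were SUS1, a sucrose synthase (r = 0.997), AT1G28260 and KCS6 (0.993 each), and AT1G32860 and COR413IM1 (0.990 each). For COR47 they were ERD9, a glutathione transferase (0.995), AT1G51090 (0.991), AT1G32860 and COR413-PM1 (0.989 each) and AT4G33700 (0.988). For RAB18 they were LACS8, a long-chain acyl-CoA synthetase (0.985), AT3G17800 (0.980), AT3G14067 (0.979), AT4G23050 (0.977) and FUM2 (0.976). For ERD10 they were HVA22D, an ABA-induced gene (0.984), AT5G04250, AT4G12000 and AT2G23120 (0.979 each) and AT5G60680 (0.978). The 8 genes given here by a symbol are named only by the study's table of transcripts responding in wild type, and 8 points fix such correlations loosely.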

How the data were processed

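RNA of whole leaves was measured on 22 arrays. The deposited log2 values are RMA expression values: the authors background corrected, quantile normalised and summarised the probe intensities, and the submitters' processing notes name R 3.1.0, oligo 1.28.0 and limma 3.20.1. Detection p-values were not used here. Groups were taken from the sample labels, and the study's methods describe the replicates as biological, with a single leaf per sample. No column belonged to another sample.

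One linear model with 8 groups was fitted with limma 3.58.1 (R 4.3.3) to the 14000 of 38408 probe sets with the highest group mean. Contrasts gave 17 comparisons: 4 responses to ABA, 9 genotype differences within a treatment and 4 differences of responses. P-values were moderated and adjusted by Benjamini-Hochberg over all probe sets tested. The fit was tested on simulated data. Alternatives were the filter (10000, 20000 or all probe sets), no minimum fold change, only the groups compared, a trended robust prior and array weights. Others were median centring, further quantile normalisation and each array left out. The stretch of sample numbers of a single treatment was also used as a random block or, except for responses to ABA, as a fixed block. Dropping the minimum fold change cannot end a call.

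The dehydrins and gene lists were chosen with earlier results of these data known, and the named genes are the 4 dehydrins plus the members of the lists (other dehydrins, ABRE or DRE binding factors, leaf, guard cell, seed and flower markers) and the 5 nearest by correlation. Probe sets of SAL1 and OST1 were not analysed here. No sequence is shown, since no sequence file was used. Intensity has no counting depth, and the number of arrays limits precision. A level is not compared between genes.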

Additional observations from a re-analysis of the deposited data

Results flagged for a closer look

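No group has more than 3 arrays, so single arrays were not screened for outlying values. The 7 results given here are differences between genotypes in the response to ABA that passed the limma test of the difference itself, on the log2 scale. Wild type exceeded ost1-2 by 3.32 for LTI30, by 1.48 for COR47, by 3.99 for RAB18 and by 1.38 for ERD10. Wild type exceeded sal1-8 by 1.97 for LTI30, a call with an adjusted p of 0.049 that most alternatives ended. Wild type exceeded ost1-2 sal1-8 by 2.42 for RAB18. The response of ERD10 in ost1-2 sal1-8 exceeded that in ost1-2 by 1.70. Those that set wild type against a mutant are not independent evidence for LTI30, RAB18 and ERD10, as given above. No explanation was tested.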

How the results depend on the processing

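The responses to ABA of the 4 dehydrins in wild type and sal1-8 passed in all alternatives in which they were tested (LTI30 is not among the 10000 brightest probe sets), and so did those in ost1-2 sal1-8 except RAB18 without array 117. Counts of dehydrins called that moved by more than 1.5 times are the following. For ost1-2 sal1-8 minus ost1-2 after ABA (2), 1 passed over the 10000 brightest, over all probe sets and with the stretch of sample numbers as a fixed block. For the response of wild type minus that of sal1-8 (1), 0 passed over the 10000 brightest, 20000 brightest or all probe sets, with only the groups compared, with the trended robust prior, with array weights, with centring and with the fixed block. For wild type minus ost1-2 sal1-8 (1), 0 passed over all probe sets, with only the groups compared and with the fixed block. For mock ost1-2 sal1-8 minus mock sal1-8 (1), 0 passed with only the groups compared and with the fixed block, and 2 with array weights. For ost1-2 minus wild type after ABA (3), 0 passed with only the groups compared. For the response of ost1-2 sal1-8 minus that of ost1-2 (1), 3 passed with array weights and 0 with the fixed block. Over the 10000 brightest, LTI30 was not tested and so could not pass in the comparisons that moved there. The fit of only the groups compared used fewer arrays. Causes beyond the untested LTI30 were not tested. With an array left out, the counts ranged from 0 to 1 for mock ost1-2 sal1-8 minus sal1-8, 1 to 3 for ost1-2 minus wild type after ABA, 1 to 2 for ost1-2 sal1-8 minus ost1-2 after ABA, 2 to 4 for the response of wild type minus ost1-2, 0 to 1 for wild type minus sal1-8, 0 to 2 for wild type minus ost1-2 sal1-8, and 0 to 1 for ost1-2 sal1-8 minus ost1-2. Values that changed sign were never called. ERD10 was at 0.12 in mock ost1-2 sal1-8 minus sal1-8 with array weights and at 0.077 in ost1-2 sal1-8 minus ost1-2 after ABA with the fixed block. With an array left out, the log2 response in ost1-2 ran from -0.028 to 0.54 for COR47 and from -0.029 to 0.47 for ERD10, mock ost1-2 sal1-8 minus sal1-8 from -0.33 to 0.12 for LTI30 and from -0.23 to 0.11 for ERD10, ost1-2 sal1-8 minus ost1-2 after ABA from -0.072 to 0.053 for ERD10, the response of wild type minus sal1-8 from -0.32 to 0.022 for ERD10, and that of wild type minus ost1-2 sal1-8 from -0.051 to 0.39 for COR47. Array weights also brought the calls of COR47 in mock ost1-2 sal1-8 minus sal1-8 (0.66), and of LTI30 (1.74) and RAB18 (1.37) in the response of ost1-2 sal1-8 minus ost1-2. Replicate numbers are not shared between groups, so samples were not paired by number, and genotypes were paired within stretches by the fixed block. That block was not fitted for responses to ABA, since each stretch holds a single treatment by the way it was divided. The stretch as a random block, fitted for all comparisons, changed no call. The 3 or fewer arrays per group and the dim signal of LTI30 limit precision.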
